A study of Mus musculus with 904 samples.

Results

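The genes described here are 9 of the 32285 in the count table: Mbp, Mobp, Mag, Opalin, Mal, Cnp, Ermn, Cldn11 and Trf. They were taken from a list of myelin and oligodendrocyte genes that was drawn up with earlier results of these data known, and the rule itself uses no measured value. Their reads were followed in 894 of 904 single nuclei, those with at least 500 genes and at least 10000 reads. Nuclei were put into classes by the level of 1 gate gene each, as reads of the gene per 1000000 reads of the nucleus (CPM). A nucleus counted as oligodendrocyte at 20 CPM or more of Mog, as astrocyte at 20 CPM of Aqp4, and as a striatal projection neuron at 20 CPM of Rgs9 with Slc17a7 under 20 CPM. Sst neurons had 100 CPM or more of Sst, Pvalb neurons had 20 CPM of Pvalb with Sst under 100 CPM, and excitatory neurons had 50 CPM of Slc17a7. A single gate was passed by 659 nuclei: 60 oligodendrocyte, 35 astrocyte, 219 striatal projection, 118 Sst, 92 Pvalb and 135 excitatory nuclei. The 4 neuron classes together held 564 nuclei, 99 nuclei passed several gates and were left out of the classes, and 136 passed none.

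Every nucleus came from a C57Bl/6J mouse given an adeno-associated virus with the PHP.eB capsid at 5e11 viral genomes per mouse in young adulthood, and was sorted 3 to 4 weeks later for the fluorescent reporter. The titles name 16 reporter constructs behind the DLX2.0 enhancer, which differ in fluorescent protein, tags, RNA elements and barcodes, and the treatment labels name 16 virus codes. The fluorescent protein is dTomato in construct dTomato-H2B and SYFP2 in the others, and the titles call nuclei of both kinds YFP+. Every class analysed here carries the injection and the reporter. Each construct in the titles went with 4 to 5 virus codes, so titles and codes do not give the same groups, and the constructs serve here only as the units over which reads were summed. No animal is named, so an error over constructs measures the spread between groups of titles, which may be technical. Every label gives primary visual cortex (VISp) as the tissue, although the design text also names motor cortex and striatum.

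Depth and markers were read before the genes. Kept nuclei held 30023 to 719419 reads, with a median of 261077. In the Mog class 7 of 8 oligodendrocyte markers were read in at least 25% of nuclei, with Olig2 lower at 13.3%, and their summed level was 5453 CPM against 218 in the Aqp4 class and 35.4 in neurons. All 4 microglial markers were at 0 in the Mog class and the progenitor markers summed to 0.270 CPM, while neuron markers summed to 557 CPM and striatal projection markers to 708 CPM. The Aqp4 class showed 5 of 6 astrocyte markers in at least 25% of its nuclei, and 4 of its 8 oligodendrocyte markers (Sox10, Myrf, Ugt8a and Gjc3) were at 0. In the Rgs9 class 5 of 6 striatal projection markers passed the same 25%, among them Ppp1r1b in 91.8% of nuclei, which goes against the VISp label of those nuclei.

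Oligodendrocytes wrap axons of the central nervous system in myelin, a stack of membrane from which most cytoplasm has been squeezed out. Basic proteins on the cytoplasmic faces hold the stack together, adhesion proteins sit at the edges and on the side that faces the axon, and tight junction strands seal the layers. Mbp messenger RNA is carried out into the processes and translated there; the Mbp gene also encodes golli proteins from an upstream start, which neurons make, and counts per gene do not separate them. Mbp and Mobp encode the basic proteins, Mag an adhesion protein that faces the axon, and Opalin a surface glycoprotein of oligodendrocytes. Mal encodes a proteolipid of lipid-rich membranes, Cnp the cyclic nucleotide phosphodiesterase of the cytoplasm-filled channels, Ermn an actin-binding protein, Cldn11 the claudin of the tight junction strands, and Trf the iron carrier transferrin. Mog, the gate gene, encodes a glycoprotein of the outermost myelin surface.

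Promoters of the members are shown because the genes share a class of nuclei and the letters show what their start regions do and do not share. RefSeq promoters of build GRCm38.p6, from 250 bases before to 50 after the start, were matched for 7 of the 9 genes. Both strands were searched for the letters of a MYRF motif (CTGGCAC or CTGGTAC), of a SOX motif (ACAAAG or ACAATG), of an E-box bound by OLIG factors (CAGCTG or CATATG) and of a TATA box (TATAAA), and an E-box match can share bases with a MYRF match, which did not occur in the windows shown. The windows of 4 members are printed 5′ to 3′ on the strand of the gene, with matches to the MYRF and SOX letters in capitals.
Mobp, chr9:120149492-120149791, plus strand: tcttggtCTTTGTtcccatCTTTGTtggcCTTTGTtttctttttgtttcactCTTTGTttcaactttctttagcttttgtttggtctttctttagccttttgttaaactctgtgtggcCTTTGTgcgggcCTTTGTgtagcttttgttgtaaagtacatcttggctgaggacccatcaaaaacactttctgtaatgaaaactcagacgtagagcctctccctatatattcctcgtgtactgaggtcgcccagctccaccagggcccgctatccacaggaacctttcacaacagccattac
Opalin, chr19:41077064-41077363, minus strand: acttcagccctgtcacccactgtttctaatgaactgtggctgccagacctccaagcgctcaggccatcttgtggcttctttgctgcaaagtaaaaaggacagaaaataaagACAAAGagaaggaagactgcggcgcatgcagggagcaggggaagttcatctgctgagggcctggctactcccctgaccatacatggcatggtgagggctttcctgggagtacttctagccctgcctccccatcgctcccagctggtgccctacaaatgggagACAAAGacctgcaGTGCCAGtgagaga
Mag, chr7:30914814-30915113, minus strand: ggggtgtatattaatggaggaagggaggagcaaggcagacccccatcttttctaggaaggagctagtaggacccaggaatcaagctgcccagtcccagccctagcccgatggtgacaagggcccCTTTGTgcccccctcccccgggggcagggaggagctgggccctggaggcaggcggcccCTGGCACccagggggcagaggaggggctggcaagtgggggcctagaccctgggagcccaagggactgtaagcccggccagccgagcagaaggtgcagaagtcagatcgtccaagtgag
Cnp, chr11:100574689-100574988, plus strand: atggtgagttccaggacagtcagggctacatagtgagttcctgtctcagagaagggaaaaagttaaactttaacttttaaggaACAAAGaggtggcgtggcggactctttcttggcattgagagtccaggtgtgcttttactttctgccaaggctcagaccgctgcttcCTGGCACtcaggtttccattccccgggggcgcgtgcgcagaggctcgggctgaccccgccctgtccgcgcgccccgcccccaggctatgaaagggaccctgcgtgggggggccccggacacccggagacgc
The MYRF letters stood in promoters of 3 members, Opalin, Mag and Cnp, and in 7.10% of the 32851 promoters in the table. SOX letters were found in 5 members and in 28.6% of all promoters. The Mobp window held 6 SOX matches, a number reached by 1 of the 32851 promoters, Mobp itself. E-box letters were found for Opalin only, against 19.8% of all promoters, and TATA letters in no member, against 13.6%. These are matches of letters, and factor binding was not measured.

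In the Mog class the 9 genes together made up 35360 CPM of all reads, and each was read in most of the 60 nuclei. Mbp had reads in all 60 nuclei, Mobp and Trf in 57, Mag and Mal in 50, Cnp in 49, Opalin in 45, Cldn11 in 42 and Ermn in 34. All 9 genes were read in 16 nuclei, 8 in 18 nuclei and 7 in 15 nuclei, and 54 of the 60 nuclei had at least 6. Values by construct are CPM of summed reads over the 9 constructs with at least 3 Mog nuclei, given as lowest, median and highest.

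The basic protein genes varied least between constructs. Mbp levels ran from 4850 CPM (SYFP2-P2A-3XFLAG-H2B) through a median of 7735 to 9174 CPM (SYFP2-H2B-BORG-BC), with a mean of 7510 ± 1262 CPM (SD, n = 9). Mobp levels ran from 2295 through 2771 to 3821 CPM, with a mean of 2913 ± 570 CPM (SD, n = 9). For both genes the highest construct was under 2 times the lowest. In single nuclei Mbp ranged from 188 to 15624 CPM around a median of 7501.

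Among the adhesion, surface and membrane genes the spread was wider. Mag levels ran from 1474 through 3097 to 5212 CPM (mean 3051 ± 1152, SD, n = 9), and Opalin levels from 321 through 1640 to 2186 CPM (mean 1513 ± 589, SD, n = 9). Mal, the proteolipid gene, ran from 541 through 2485 to 4948 CPM (mean 2611 ± 1357, SD, n = 9). Both Mag and Opalin had their middle construct near the mean, whereas the lowest Opalin and Mal constructs stood far under it. In single nuclei Mag, Mal and Opalin each began at 0, with medians of 2383, 2331 and 1320 CPM.

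Cnp, the phosphodiesterase gene, ran from 2254 through 3605 to 4888 CPM (mean 3478 ± 960, SD, n = 9). Ermn, the actin-binding gene, had the widest spread relative to its mean, from 51.5 through 514 to 2052 CPM (mean 729 ± 669, SD, n = 9). Its SD was close to its mean, so a level of Ermn for the class is poorly fixed by these constructs. Cldn11 ran from 0.546 through 241 to 569 CPM (mean 256 ± 193, SD, n = 9), and its lowest value, in dTomato-H2B, rests on 1 read in 5 nuclei. Trf, the transferrin gene, ran from 8323 through 11917 to 17988 CPM (mean 12896 ± 3145, SD, n = 9).

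To set levels of the genes side by side, CPM were divided by the length of the joined exons of each gene in the GENCODE M21 annotation of mm10, with all reads of a gene counted as exonic, which the sources do not state. Trf led with 3975 CPM per kilobase, followed by Mal with 1035, Cnp with 976, Mbp with 872, Mag with 729, Opalin with 508, Mobp with 419, Ermn with 213 and Cldn11 with 131. Mal, Cnp, Mbp and Mag lie close together on this scale relative to their spread over constructs, so their order is not fixed. The members lie on 7 chromosomes of mm10: Mag at chr7:30899176-30914873, Opalin at chr19:41061710-41077113, Mobp at chr9:120149707-120181484, Trf at chr9:103204001-103230444, Mal at chr2:127633226-127656695, Ermn at chr2:58045113-58052864, Cnp at chr11:100574904-100591729, Cldn11 at chr3:31149920-31164324 and Mbp on chromosome 18. Cnp overlaps Dnajc7 and Ermn overlaps Galnt5 in that annotation. The use of strand in counting is not stated, so reads in those overlaps cannot be told apart.

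**Figure D1:**
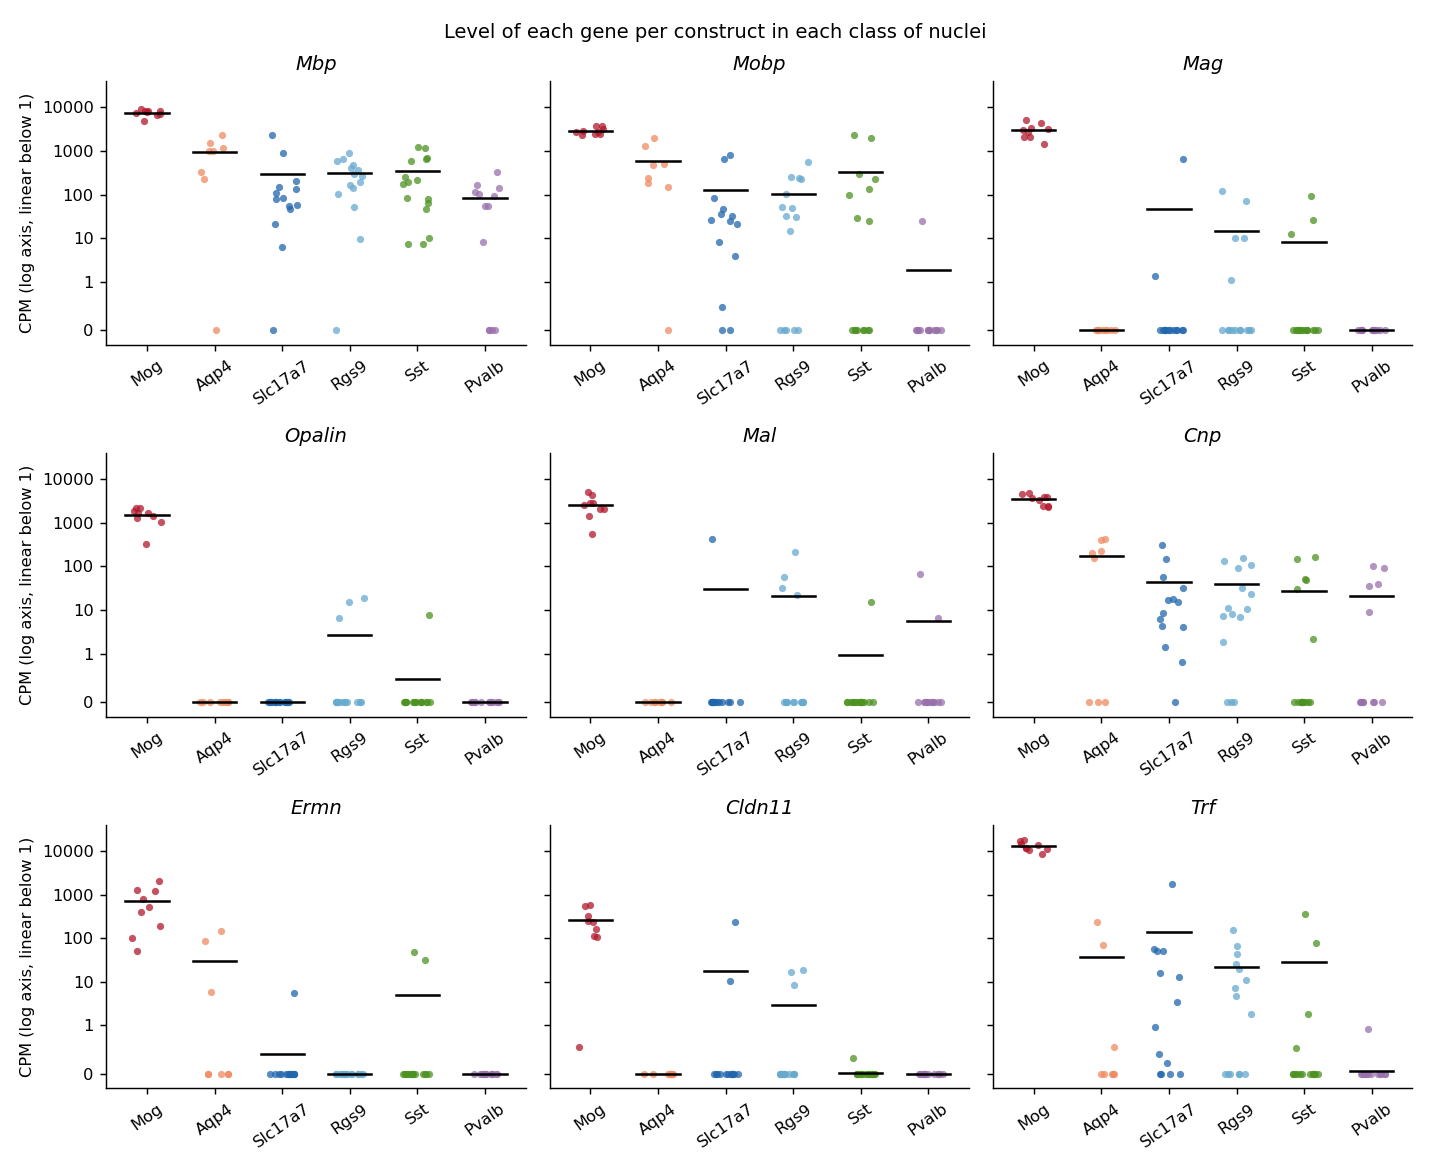
Level of each of the 9 genes (CPM, log axis, linear below 1) in the 6 classes of nuclei, with 1 point for each construct with at least 3 nuclei of the class and a line at the mean. Mbp in the Mog class lies between 4850 and 9174 CPM, above every construct of the other classes, and among the 9 genes the Mog class overlaps another class for Mobp, Cldn11 and Ermn. Overlap was looked at for these 9 genes only, so no share over all genes stands beside it.

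Members moved only loosely together from nucleus to nucleus within the Mog class. Across the 60 nuclei the 36 pairs of members had Spearman correlations of log2(CPM + 10) from -0.0715 to 0.566, with a median of 0.195, and 31 pairs were above 0. These points share library chemistry and differ in depth, and no p is given. Opalin and Cnp had the highest pair value, 0.566, whereas Mbp and Trf had -0.0191.

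The Mog nuclei were poor in genes, with a median of 1046 genes against 2889.5 in neurons, at a median of 306885 reads against 254466. Within the class 23 nuclei had under 1000 genes and 37 had more. Mbp was level between these groups of nuclei, with 7441 CPM in the poorer and 7350 CPM in the richer nuclei. Mobp stood at 3471 CPM in the poorer and 2571 CPM in the richer nuclei, and Trf at 10838 and 14376 CPM. Cnp was read in 65.2% of the poorer nuclei (95% Clopper-Pearson interval 42.7 to 83.6) and in 91.9% of the richer (78.1 to 98.3). These are values over nuclei, which are not replicates, and were not tested.

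Against astrocytes 4 members had no read in the constructs compared, and Mbp and Mobp had the smallest ratios. The comparison used edgeR's quasi-likelihood test on reads summed per construct and class, with construct as a block and 1 fit over all 6 classes, and p-values were adjusted by Benjamini and Hochberg over 13054 genes. A gene was called at an adjusted p under 0.05. In this comparison 6 of the 9 members were called higher in the Mog class, against 7.02% of all genes tested. These calls are not independent of the gate, since the Mog class was selected with another myelin gene. The median log2 difference over all genes was 0.18. Without pool S40327, which held 41 of the 60 Mog nuclei and 25 of the 35 astrocytes, 2 members were called, and 1 with at least 5 nuclei per sum, whereas limma-voom called all 9.

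Mag, Mal, Opalin and Cldn11 had no read in the 8 constructs with at least 3 astrocyte nuclei, and their levels in the Mog class were at least 9893-fold, 9527-fold, 4953-fold and 752-fold higher, with 3 reads over the group as the floor. For Mag this bound holds for those constructs only: 1 astrocyte outside them had 174 reads, so over all 35 astrocytes Mag stood at 16.5 CPM, 0.554% of its level in the Mog class. The adjusted p-values of Mag, Mal, Opalin and Cldn11 in edgeR were 4.93e-06, 3.39e-06, 2.01e-06 and 0.000519. Without a read in the astrocyte constructs, they passed the filter on low counts through other classes, among them the Mog class. Their p-values are thus no separate support for the difference. Trf reached 13485 CPM of summed reads against 40.4 in astrocytes, a ratio of 334, with an adjusted p of 2.89e-05 in edgeR. For Trf the astrocyte constructs ran from 0 through a median of 0 to 234 CPM, under the lowest Mog construct. Fitted log2 differences of these genes depend on the prior count and are not given.

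Mbp ran from 0 through 997 to 2364 CPM over the 8 astrocyte constructs (mean 953 ± 776, SD), below all 9 Mog constructs. The ratio of summed levels was 8.44 and the fitted log2 difference 3.24 ± 1.16 (SE), with an adjusted p of 0.0471 in edgeR. This call was lost in 6 of the 9 fits that left out 1 Mog construct and under 8 of 15 other settings, with log2 differences from 1.19 to 3.89 over all 24.

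Mobp, Cnp and Ermn did not pass the threshold against astrocytes. Mobp ran from 0 through 362 to 1954 CPM in astrocyte constructs, a ratio of summed levels of 5.14, with a log2 difference of 2.11 ± 1.54 (SE) and an adjusted p of 0.405 in edgeR. Cnp had a ratio of 22.3 and a log2 difference of 4.01 ± 1.54 (SE), with an adjusted p of 0.0683 in edgeR. Ermn had a ratio of 30.5 with an adjusted p of 0.0511 in edgeR, and its highest astrocyte construct, 147 CPM, lay above its lowest Mog construct. Other settings called some of these genes: Cnp under 6 of 15 (adjusted p down to 5.49e-05), Ermn under 3 and in 1 of the 9 fits that left out a construct (down to 1.37e-10), and Mobp under 1 (0.0246). The lowest p of each came from limma-voom.

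Against each of the 4 neuron classes all 9 members were called higher in the Mog class by edgeR. The Mog class was selected with another myelin gene, and nuclei of neuron gates past the Mog gate were left out. These calls are thus not independent of the gate. The share of all 13054 genes called higher was 3.52% against striatal projection, 3.13% against Sst, 3.34% against Pvalb and 2.42% against excitatory nuclei. Median log2 differences over all genes were -2.57, -2.40, -2.30 and -3.26 in the same order, so most genes were lower in the gene-poor Mog nuclei while the members were higher. With RLE in place of TMM scaling the median against striatal projection nuclei was -2.25, and members are higher on either scale. Without pool S40327 the members called were 7 against striatal projection and excitatory nuclei and 8 against Sst nuclei.

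Mbp levels over constructs ran from 0 through 272 to 894 CPM in striatal projection nuclei, from 7.22 through 182 to 1218 CPM in Sst nuclei, from 0 through 54.1 to 331 CPM in Pvalb nuclei and from 0 through 81.4 to 2333 CPM in excitatory nuclei. No neuron construct reached the lowest Mog construct. The log2 differences for Mbp were 4.25 ± 0.91, 4.24 ± 0.94, 6.67 ± 1.06 and 5.38 ± 1.02 (SE), with adjusted p-values of 0.000171, 0.000294, 7.92e-07 and 2.25e-05 in edgeR.

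Mobp overlapped in Sst nuclei. Its constructs ran from 0 through 12.6 to 2349 CPM in Sst nuclei, the highest lying above the lowest Mog construct of 2295 CPM, and from 0 through 0 to 24.8 CPM in Pvalb nuclei. The ratio of summed Mobp levels was 14.97 for Sst (adjusted p = 0.0175, edgeR), 18.3 for excitatory (adjusted p = 0.00288), 27.4 for striatal projection (adjusted p = 0.00236) and 576 for Pvalb nuclei (adjusted p = 7.22e-08). Cnp gave ratios of 61.4 for striatal projection, 157 for Sst, 169 for Pvalb and 107 for excitatory nuclei, with adjusted p-values of 4.09e-05, 0.000277, 1.72e-05 and 0.000268 in edgeR. Mbp and Mobp had the smallest ratios of any members against striatal projection and Sst nuclei, and Cldn11 stood between them against excitatory nuclei, where 93.4% of its reads came from 1 nucleus. Whether these members differ from the others was not tested.

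The remaining members were at or near 0 in most neuron constructs. In Pvalb nuclei Mag, Opalin, Cldn11 and Ermn had no read in the constructs tested and were at least 23773-fold, 11903-fold, 1806-fold and 6159-fold higher in the Mog class, with adjusted p-values of 1.72e-09, 1.31e-08, 8.12e-06 and 6.49e-08 in edgeR. Without a Pvalb read, these genes passed the filter on low counts through other classes, among them the Mog class where they are high. Their p-values are thus no separate support for the difference. Ermn was at least 15877-fold higher than in striatal projection nuclei, and Opalin at least 17220-fold higher than in excitatory nuclei. Trf had 3 reads in the Pvalb constructs tested, but 13 reads over all 92 Pvalb nuclei, where its 0.540 CPM was 0.00409% of its level in the Mog class. Its ratio against excitatory nuclei was 145. Cldn11 had 1 read in Sst nuclei, a ratio of 7230 with a 95% counting interval from 1297 to 285650, but a ratio of 19.9 against excitatory nuclei. For Cldn11 the Mog constructs overlapped those of striatal projection and excitatory nuclei.

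**Figure D2:**
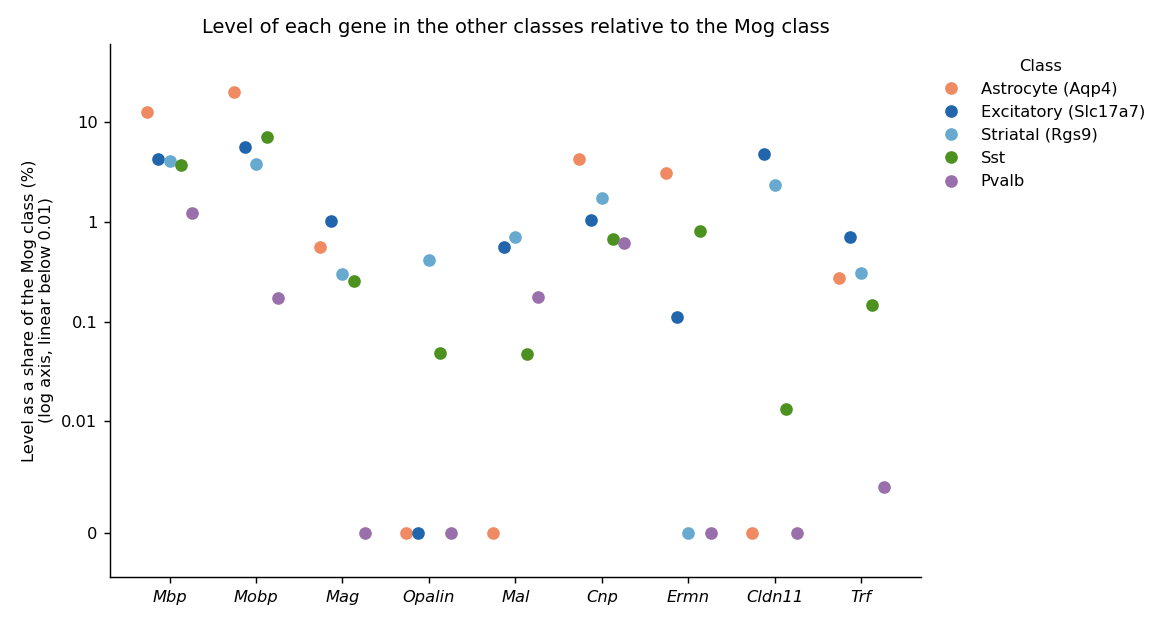
Level of each gene in the other 5 classes as a share of its level in the Mog class (%, log axis, linear below 0.01), from reads summed over all nuclei of a class. Nuclei past several gates are in no class. Mobp and Mbp stand highest in astrocytes at 19.7% and 12.5%, and Opalin stands at 0 in astrocyte, excitatory and Pvalb nuclei.

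Most other oligodendrocyte genes were higher in the Mog class too. Of 10 genes of myelin and its lipids, 6 were called higher than in astrocytes and 8 to 9 higher than in each neuron class, and none lower. Aspa, the enzyme that splits N-acetylaspartate, and Fa2h, which hydroxylates fatty acids of myelin lipids, were among those with the smallest p. Of 7 transcription factors tested, 6 were called higher than in astrocytes and 6 to 7 higher than in the neuron classes, among them Olig1 and Zfp536. Junction, adhesion and receptor genes were called higher for 9 of 12 against astrocytes and 9 to 12 of 12 against neuron classes, with the connexin gene Gjc3 and Hapln2, a link protein of the node of Ranvier, among the smallest p. Of 10 other genes enriched in oligodendrocytes, 8 were called higher than in astrocytes and 9 to 10 higher than in the neuron classes, among them Apod and Il33. Only 3 of 8 progenitor genes had enough reads to be tested, and they went both ways: Enpp6, which marks newly formed oligodendrocytes, was called higher in all 5 comparisons and Tnr lower in the 4 against neurons. Vcan, which encodes a matrix proteoglycan, was called lower against striatal projection nuclei only (log2 difference -7.42 ± 2.06, SE, adjusted p = 0.00373, edgeR). For Tnr the adjusted p-values of edgeR were 4.57e-06 against striatal projection, 4.53e-06 against Sst, 1.77e-06 against Pvalb and 7.29e-07 against excitatory nuclei. These lists are not independent of the class, whose nuclei were selected with another myelin gene.

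Among 12857 genes, the 5 whose log2(CPM + 10) followed the summed level of the 9 members most closely over the 659 nuclei were Mog itself (Spearman 0.523), Apod (0.485), Aspa (0.485), Gjc3 (0.466) and Cmtm5 (0.451). Mog rests on the gate that made the class. Apod was read in 54 of 60 Mog nuclei and in 26 of 564 neurons, and Gjc3 in 50 and 1.

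Outside the Mog class most nuclei with a read had only 1 or 2 of the genes, in different proportions. Of the 564 neurons, 302 had no read of any of the 9 genes, 168 had reads of 1, 70 of 2 and 24 of 3 or more. Mbp was read in 177 neurons (31.4%, 95% Clopper-Pearson interval 27.6 to 35.4) and in 18 of 35 astrocytes (51.4%, interval 33.99 to 68.6), at median depths of 254466 and 286357 reads. Cnp was read in 72 neurons, Mobp in 65, Trf in 36, Mal in 14, Mag in 11, Cldn11 in 8, Opalin in 6 and Ermn in 4. Mog itself was read in 5 neurons, a count that the gate limits. Nuclei of neuron gates with 20 CPM or more of Mog, 19 in all, are not in these classes. Astrocytes gave Mobp in 12, Cnp in 7, Ermn in 4, Trf in 3 and Mag in 1 of 35 nuclei, and Mal, Opalin and Cldn11 in none, which allows a share of up to 8.57%. For the other 6 members the share of neurons was at or under that of astrocytes, and no expression in neurons is read from these shares.

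**Figure D3:**
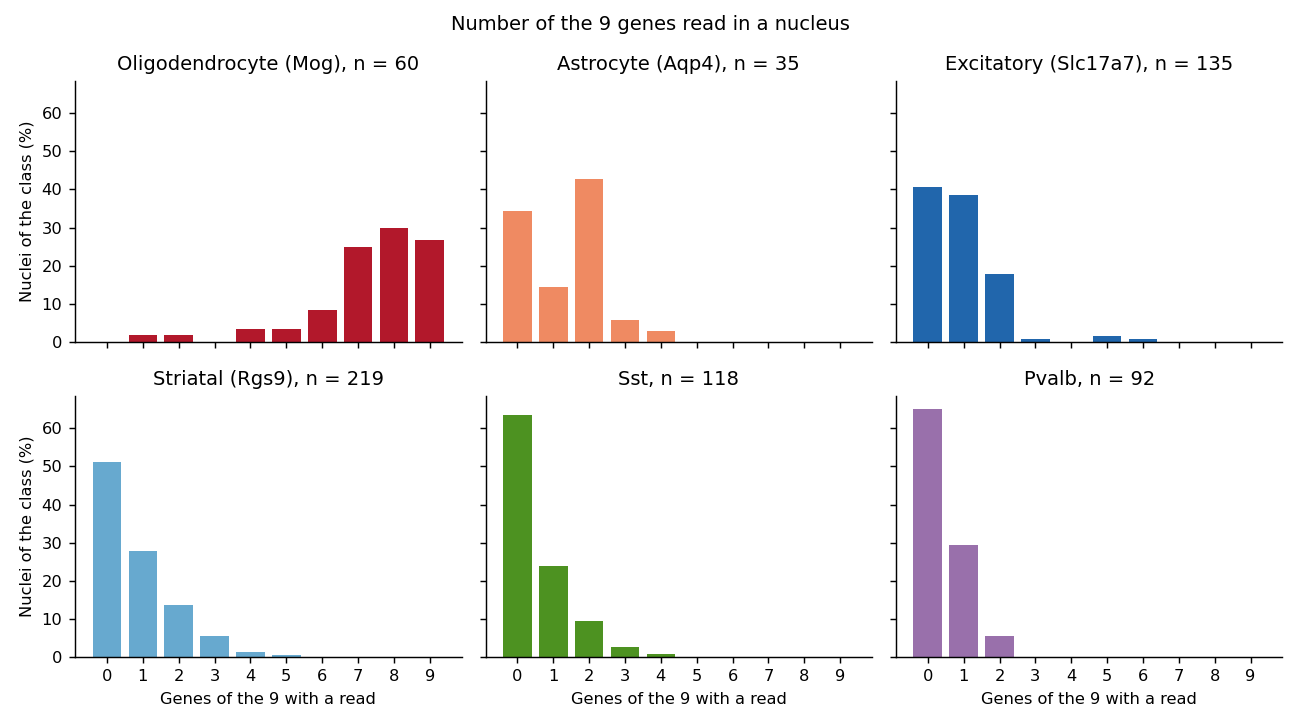
Share of nuclei of each class (%) by how many of the 9 genes had a read. In the Mog class 54 of 60 nuclei had at least 6 of the genes, and in neurons 302 of 564 nuclei had none.

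The relative levels split the genes. Nuclei of neuron gates that also passed the Mog gate are in no class, so the levels in neurons leave them out. As a share of its own level in the Mog class, neurons held 4.27% of Mobp, 3.56% of Mbp, 2.03% of Cldn11 and 1.16% of Cnp. For Mal, Mag and Trf the shares were 0.445%, 0.404% and 0.311%, and for Ermn and Opalin 0.193% and 0.175%. Without 1 excitatory nucleus with 39410 CPM of the 9 genes, Cldn11 stood at 1.01%, Mag at 0.174% and Trf at 0.173%, and Mobp and Mbp at 3.99% and 3.26%. Not divided by length, Mbp took 52.4% of the reads of the 9 genes in neurons and Mobp 24.5%, whereas Trf took 8.20%. In the Mog class the order was Trf with 37.3%, Mbp with 20.9% and Cnp with 10.1%, and Mobp took 8.12%.

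**Figure D4:**
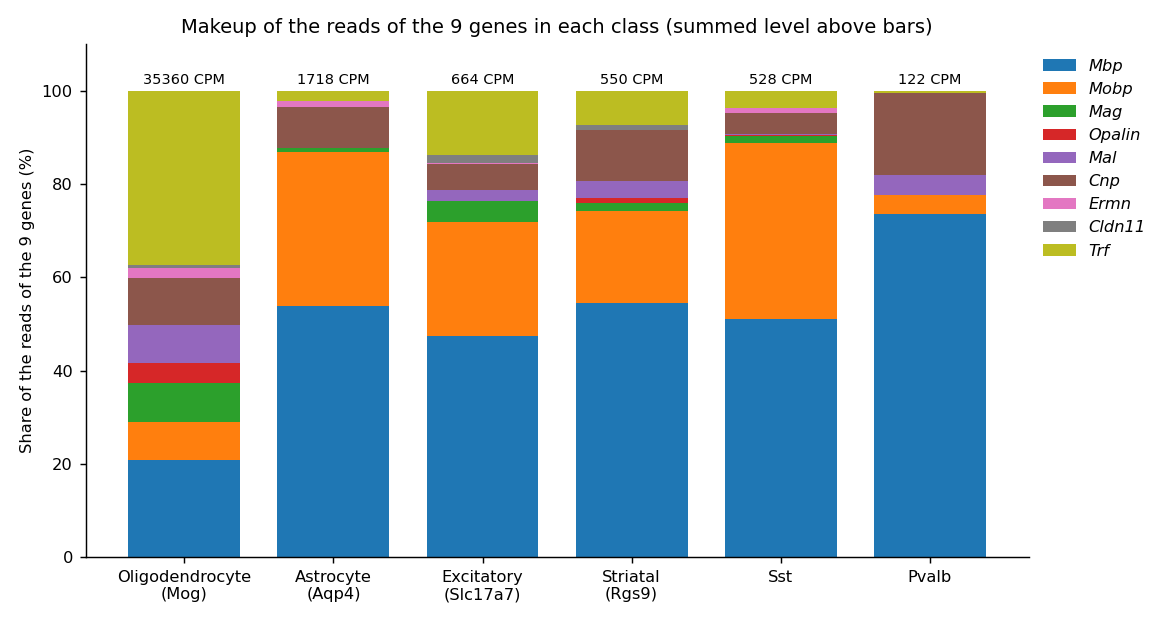
Share of each gene (%) in the reads of the 9 genes, by class, with the summed level of the 9 genes in CPM above each bar. Nuclei past several gates are in no class. Trf leads in the Mog class with 37.3% of the reads, and Mbp leads in every other class with 47.5% to 73.6%.

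Pvalb nuclei had the lowest summed level of the 9 genes, 122 CPM, of which Mbp was 73.6% and Cnp 17.7%. Sst nuclei summed to 528 CPM with 37.8% from Mobp, striatal projection nuclei to 550 CPM, excitatory nuclei to 664 CPM and astrocytes to 1718 CPM. Nuclei that also passed the Mog gate are not in these sums. Their median levels of the 9 genes were 28170 CPM (11 Sst nuclei) and 42080 CPM (3 Rgs9), but 58.7 CPM (4 Slc17a7) and 0 CPM (3 Pvalb). Within the classes a few nuclei carry much of the summed levels. In excitatory nuclei the top 5 nuclei gave 81.3% of the reads of the 9 genes, and the top nucleus had 39410 CPM over 6 of the genes with 977 genes in all, no Mog read and 186.5 CPM of its gate gene Slc17a7. The top Sst nucleus, at 14400 CPM, held only Mbp and Mobp.

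That excitatory nucleus, from pool S40327 and construct U7snRNAOPT-3'box-SYFP2-H2B-BC, set several levels. It held 99.3% of the Mag reads of the 135 excitatory nuclei, 93.4% of those of Cldn11, 87.5% of those of Trf and 31.2% of those of Mbp. Without it, an alternative chosen after seeing the data, excitatory nuclei stood at 0.210 CPM for Mag against 30.2 with it, at 0.780 against 11.7 CPM for Cldn11, at 11.6 against 91.8 CPM for Trf and at 219 against 316 CPM for Mbp. Mal, Opalin and Ermn had no read in it. In its construct the other 6 excitatory nuclei had 204.5 CPM of Mbp and no read of Mag, Cnp, Trf or Cldn11.

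Excitatory and striatal projection nuclei were compared directly for the same reads. None of the 9 members was called by edgeR, against 5.13% of all genes tested. An unadjusted p under 0.05 was found for 3 members (Opalin, Mal and Ermn), against 1813 of all 13054 genes. DESeq2 called 2 members and 1247 of all genes, and limma-voom called 0 members and 1387 of all genes. A fit of these classes alone tested 4 members, Mbp, Mobp, Cnp and Trf, of which none was called. The other 5, with Opalin, Mal and Ermn among them, passed the filter on low counts only in the fit that includes the Mog class. They are high in that class, so their p-values here cannot decide whether these neuron classes differ. Opalin had no read in 14 excitatory constructs, and its striatal projection constructs ran from 0 through 0 to 18.8 CPM, with an adjusted p of 0.0522 in edgeR. Mal ran from 0 through 0 to 422 CPM in excitatory constructs and from 0 through 0 to 211 CPM in striatal projection constructs, with an adjusted p of 0.129 in edgeR. Mbp had a ratio of summed levels of 1.06 but a fitted log2 difference of -1.13 ± 0.89 (SE, adjusted p = 0.727, edgeR). Over all nuclei its level was 316 CPM in excitatory and 299 CPM in striatal projection nuclei, and 219 CPM in excitatory nuclei without the nucleus described above. Among the other oligodendrocyte lists, Fa2h, the fatty acid hydroxylase of myelin lipids, was called lower in excitatory nuclei (adjusted p = 0.00691, edgeR), and Lpar1, Cntn2 and Enpp2 were called higher. Fa2h was not among the genes tested in the fit of neurons by pool described below, which leaves out the Mog class. Like those of Opalin, Mal and Ermn, its p-value cannot decide whether these neuron classes differ.

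Library pools, named by the prefix of the library names, were compared for reads of the genes in neurons. Pool S40317 gave 77 neurons, S40325 gave 280 and S40327 gave 207, at median depths of 256203, 271576 and 235051 reads. The Mog gate was passed by 1.87%, 5.72% and 14.03% of kept nuclei in these pools. The makeup of the neurons differed too: S40317 held 54 excitatory nuclei, 16 Pvalb, 7 Sst and no striatal projection nuclei. Pool and class cannot be fully told apart in these neurons.

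At least 1 of the 9 genes was read in 54.5% of neurons of S40317 (interval 42.8 to 65.9), 46.8% of S40325 (40.8 to 52.8) and 42.995% of S40327 (36.2 to 50.0). With each nucleus thinned to 50000 reads these shares were 48.1%, 44.2% and 40.1%. Summed levels ran the other way, 75.8 CPM in S40317 against 554 and 604 CPM. Neurons of S40317 with a read of the genes thus had lower levels of them, up to 685 CPM in any nucleus, while single nuclei reached 19836 and 39414 CPM in the other pools.

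Mbp showed this most plainly. It was read in 40.3%, 29.6% and 30.4% of neurons in S40317, S40325 and S40327, at 50.6, 277 and 332 CPM. Over constructs the Mbp levels were 46.3 ± 40.2 CPM (SD, n = 8) in S40317, 355 ± 328 CPM (SD, n = 11) in S40325 and 324 ± 312 CPM (SD, n = 15) in S40327. In excitatory nuclei alone the shares for Mbp were 46.3%, 38.3% and 29.4%, at 62.2, 469 and 578 CPM, but 80.7% of the Mbp reads in S40327 came from the 1 nucleus described above, and without it the level there was 116 CPM, below that of S40325. Over all neurons of S40327 Mbp stood at 265 CPM without it.

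The pools were tested with edgeR on sums per construct and pool over 12462 genes. Between S40317 and S40327 none of the 4 members tested was called, against 0.0321% of all genes. An unadjusted p under 0.05 was found for 2 members, against 1103 of all 12462 genes. DESeq2 called 2 members and 965 of all genes, and limma-voom called 1 member and 250 of all genes. Mbp had a log2 difference of -3.13 ± 0.67 (SE, adjusted p = 0.0676, edgeR). Its adjusted p over 11 other settings ran from 1.62e-06 with DESeq2 to 0.834, and was 0.462 with sums per class and class as a term. Mobp had -5.31 ± 2.04 (SE, adjusted p = 0.390, edgeR). Between S40325 and S40327 none of the 4 members was called by edgeR, against 0.0% of all genes, of which 316 had an unadjusted p under 0.05 and DESeq2 called 247 and limma-voom 1. Among the members 1 had an unadjusted p under 0.05, DESeq2 called 1 and limma-voom 0. At that unadjusted p stood Trf, whose fitted log2 difference of 5.13 ± 1.92 (SE, adjusted p = 1.0, edgeR) has the opposite sign to its summed levels of 31.7 and 74.1 CPM. Without the 1 excitatory nucleus the level of Trf in S40327 was 18.6 CPM, below that of S40325.

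The 5 members that were too sparse for the pool test had no read in the 77 neurons of S40317, which allows a share of up to 3.90% each. In S40325 and S40327 they stood at 0.735 and 35.3 CPM for Mag, 20.9 and 5.43 CPM for Mal, 4.68 and 0.454 CPM for Opalin, 4.18 and 8.41 CPM for Cldn11 and 1.17 and 2.69 CPM for Ermn. Mag stood higher in S40327 and Mal and Opalin in S40325, each on at most 10 nuclei, and these differences were not tested. Without the 1 excitatory nucleus S40327 stood at 14.6 CPM for Mag and 0.830 CPM for Cldn11, so Cldn11 was then lower there than in S40325. Cnp was read in 22.1%, 11.8% and 10.6% of neurons of the 3 pools, at 16.2, 47.1 and 42.7 CPM. Astrocytes had Mbp at 0, 758 and 1204 CPM in the 3 pools, on 5, 5 and 25 nuclei.

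**Figure D5:**
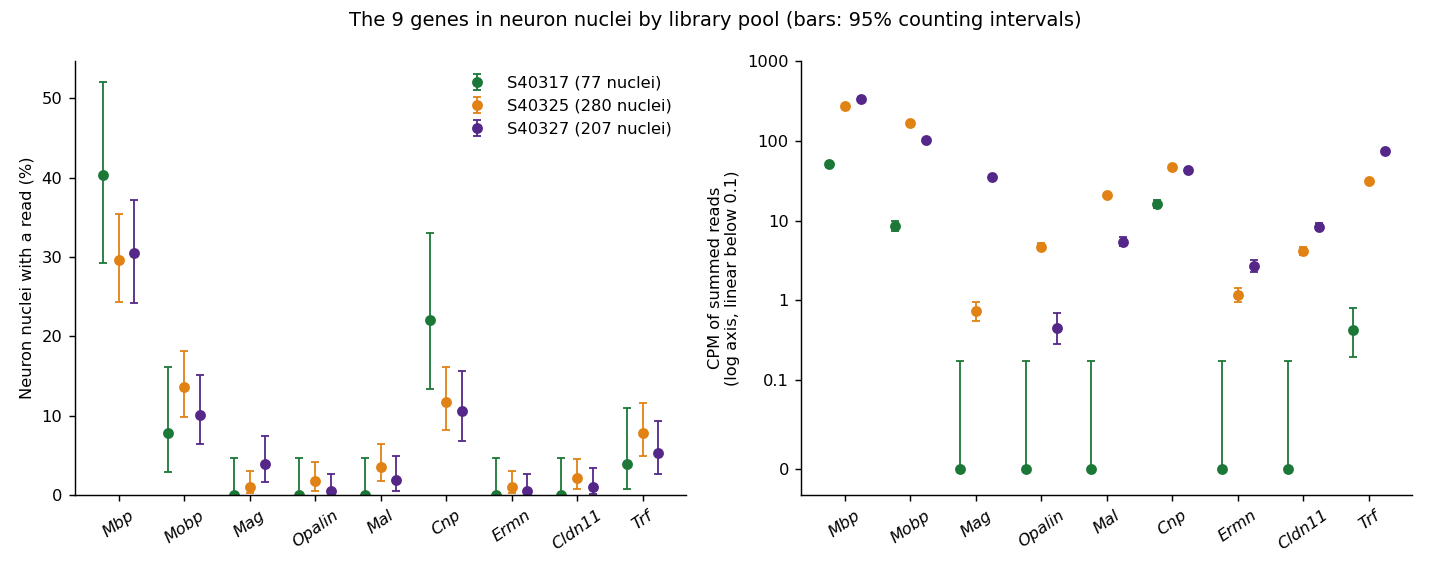
Share of neuron nuclei with a read of each gene (left, %) and CPM of summed reads (right, log axis, linear below 0.1) in the 3 library pools, with 95% counting intervals. Mbp is read in 40.3% of neurons of pool S40317 at 50.6 CPM, and in 30.4% of neurons of S40327 at 332 CPM.

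The gate at 20 CPM of Mog had few nuclei near it. Mog had no read in 810 nuclei, lay between 0 and 20 CPM in 5 and passed in 79, with a median of 1769 CPM and a highest value of 9066. Just inside stood nuclei at 22.6, 70.6 and 76.3 CPM, with 63.2, 635 and 1818 CPM of the 9 genes, and just outside nuclei at 15.7, 14.4 and 11.9 CPM, with 803, 306 and 1765 CPM. The gate left out some nuclei rich in the other genes: 22 nuclei under 20 CPM of Mog had reads of at least 5 members, 20 of them with no Mog read. Their median summed level was 26318 CPM, and 14 of them passed no gate.

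Of the 79 nuclei past the Mog gate, 19 passed another gate too and were left out of the class: 11 passed Sst, 4 Slc17a7, 3 Rgs9 and 3 Pvalb, and none Aqp4. The 11 Sst nuclei had a median of 8 members and 28170 CPM of the 9 genes, with a median of 344 CPM of Sst against 3920 CPM in the Sst class. The 3 Pvalb nuclei had a median of 0 members and the 4 Slc17a7 nuclei a median of 1, with Slc17a7 at a median of 535 CPM against 512 CPM in its class. Some nuclei past several gates were thus rich in the 9 genes and others nearly without them.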

How the data were processed

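Single nuclei were amplified with SMART-Seq v4, which has no molecular identifiers, and the Nextera XT kit was used to prepare sequencing libraries, both per the labels' protocols. The authors deposited a table of raw read counts, per the file's whole-number values, with 32285 genes in 2501 columns, of which 904 match samples here and 1597 columns of per-sample values were not used. Per the submitters' processing notes, STAR 2.7.2a and build mm10 were used. How reads were counted per gene, and whether strand was used, is not given in the sources used here. Symbols came from GENCODE M21, which matched 32158 gene IDs, left 127 unmatched and gave 52 a shared symbol. Each library is 1 nucleus, so libraries share no cell barcodes, and no doublet caller was run.

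Counts were summed per construct and class where at least 3 nuclei were present, which gave 75 sums. They were tested with edgeR 4.0.16 in R 4.3.3 by the quasi-likelihood F test with TMM scaling, filterByExpr and construct as a block, and p-values were adjusted by Benjamini and Hochberg over all genes tested at 0.05. Neuron sums per construct and pool were fitted in the same way. The scripts were tested on simulated data. DESeq2 1.42.0, limma 3.58.1 and other scalings, filters, gates and groupings served as alternatives, each listed in the closing section where it matters. Levels are CPM, correlations use log2(CPM + 10), and shares have 95% Clopper-Pearson intervals. Intervals, and the limit of 3 counts that a count of 0 allows, cover counting error only, since reads without molecular identifiers are not independent molecules.

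The text names all 9 members, in each list of other oligodendrocyte genes those with the smallest p in each direction, the gate genes and the 5 genes most like the members' summed level. Of the genes listed, 1 is not reported here. Members, lists and gates were chosen with earlier results of these data known. Sequences are from RefSeq, and Mbp and Trf had no matched promoter.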

Additional observations from a re-analysis of the deposited data

Results flagged for a closer look

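Among the Mog and astrocyte constructs, 1 value stood apart from the others of its group. The 4 neuron classes, with 13 to 16 constructs each, were not looked at in this way. In excitatory nuclei Trf reached 1760 CPM in 1 construct, against a median of 2.22 CPM over constructs. In astrocytes, construct 3xBORG-SYFP2-H2B-BC had 234 CPM of Trf, and the nearest of the other 7 constructs had 68.6 CPM. The gap made up 0.707 of the range over the 8 constructs. Of 14 groups of constructs looked at in this way 1 was marked. Chance marks about 1 in 20 where values follow a normal distribution. In the marked group 5 of the 8 constructs were at 0, so that rate does not apply to it.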

How the results depend on the processing

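No paired analysis was possible because the numbers in the titles only count nuclei within a construct; construct itself is a block in the reported fits. The members were called higher than in each neuron class under every setting that left out 1 construct (9 of 9), and 7 to 9 were called under the other settings. Without pool S40327, which gave 41 of the 60 Mog nuclei, the calls of Mobp and Cldn11 against striatal projection, of Ermn against Sst and of Cldn11 and Ermn against excitatory nuclei were lost, and the cause was not tested. Under 1 other setting the call of Opalin against striatal projection nuclei was lost. Against astrocytes 5 to 6 members were called without 1 construct, but 1 with at least 5 nuclei per sum and 2 without pool S40327, where fewer sums enter, and 9 with limma-voom. Genes called against astrocytes (1849) numbered 4993 with DESeq2, 563 with at least 5 nuclei per sum, 1010 with nuclei of several gates kept in the first, 186 without S40327 and 221 with separate fits, and 1619 to 1885 without 1 construct. With nuclei of several gates kept in the first, the counts were 2695 against striatal projection (4882), 2203 against Sst (4498), 2223 against Pvalb (4352) and 3010 against excitatory nuclei (5662). Without S40325 they were 2953, 2901 and 2756 for the first 3 of these, and without S40327 they were 2348, 1566, 1821 and 2370. DESeq2 gave 6948 for Sst and 6767 for Pvalb, and separate fits 2462 and 2262. Leaving out 1 construct gave 4055 to 4786, 3776 to 4630, 3613 to 4479 and 4940 to 5798.

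Excitatory against striatal projection nuclei gave 0 members and 670 genes. One member (1) was called with RLE scaling, no filter, sums per virus code, at least 5 nuclei per sum or nuclei of several gates kept, and 2 with DESeq2. Each of these calls fell on Opalin, Mal or Ermn, which the fit of these classes alone did not test. Genes called were 1247 with DESeq2, 1387 with limma-voom, 347 per virus code, 437 with at least 5 nuclei, 258 without S40317, 52 without S40327 and 569 to 682 without 1 construct, with 0 members called in each of the latter. Several signs turned. Cnp turned to -0.30 with limma-voom, -0.45 per virus code, -0.068 with at least 5 nuclei, -0.45 with at least 1000 genes and -0.054 with separate fits, and ran from -0.46 to 1.21 without 1 construct. Trf turned to -0.11 with limma-voom, -1.80 with at least 5 nuclei, -0.36 with at least 1000 genes and -1.29 without S40327, and ran from -0.49 to 1.52 without 1 construct. Ermn turned to -2.48 with several gates kept, -0.12 without S40325 and ran from -0.70 to 1.23 without 1 construct. Cldn11 turned to 0.90 per virus code, and Mobp ran from -1.48 to 0.019 without 1 construct.

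Between pools S40317 and S40327 (4 genes, 0 members) 129 genes and 2 members were called with no filter, 965 and 2 with DESeq2, 250 and 1 with limma-voom, 29 and 1 with at least 5 nuclei, and 10 and 1 with Mog nuclei kept. Genes alone came to 1 per virus code, 28 with at least 1000 genes per nucleus, 2 with several gates kept and 139 with class as a term. Cnp turned to -0.98 per virus code and -2.47 with Mog nuclei kept. Between S40325 and S40327 (0 genes, 0 members) 9 genes were called with no filter, 247 genes and 1 member with DESeq2, 1 gene with limma-voom and 3 with class as a term. Mbp turned to -0.55 with limma-voom and Mobp to -0.41 with at least 5 nuclei. Without the excitatory nucleus richest in the 9 genes, 24 of 36 levels of members in excitatory nuclei and neurons moved beyond their counting interval and 12 did not. Thinning moved each share of neurons with a read by less than its interval. Depth limits the sparse members: Opalin, Cldn11 and Ermn in neurons rest on 6, 8 and 4 nuclei.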
